A study of Mus musculus with 8 samples.

Results

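JQ1 was given on top of an anti-PD-1 antibody to mice with lung tumours, and the tumour nodules were set against nodules of mice given the antibody alone. The comparison uses 4 of the 8 libraries of the series, chosen by their treatment label: 2 labelled anti-PD1-JQ1, here called the combination, and 2 labelled anti-PD1. Every gene that passed a filter on low counts was tested, which made 14085 genes of 52459 gene symbols. The other 4 libraries are 2 labelled JQ1 and 2 labelled Vehicle. They entered the fit to estimate the spread between libraries and are also set beside the comparison. All 8 libraries, controls included, come from nodules of lung tumours, in mice of a genetically engineered model on a mixed background. Alleles, the driver of recombination, doses, duration of treatment and ages were not given in the sources used here, nor whether nodules of several mice were pooled.

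JQ1 is a small molecule that fills the acetyl-lysine pocket of the BET bromodomain proteins, which otherwise read acetylated histones at promoters and enhancers. BET proteins help to bring in P-TEFb, the kinase that releases paused RNA polymerase II, and MYC family genes are known as sensitive targets of BET inhibition in several tumour types. PD-1 is an inhibitory receptor of activated T cells, and antibodies against it take off that brake. The design asks how nodules under the antibody and the bromodomain inhibitor differ from nodules under the antibody alone.

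Messenger RNA of coding regions was enriched with capture probes, and the deposited table gives whole-number read counts per gene. Total counts were 2719816 and 9034331 in the combination libraries, against 12998173 and 10318833 in the anti-PD-1 libraries. Ribosomal RNA genes took 49.2% ± 4.62 of the counts in the combination and 23.8% ± 0.46 with anti-PD-1 (SD, n = 2 each). The share did not overlap between the groups, and 2 against 2 libraries cannot give an exact permutation p (two-sided) under 0.333, which is the value found. Outside ribosomal RNA the combination libraries held 1469976 and 4292315 counts, against 9942081 and 7826039 in the anti-PD-1 libraries. Since the share of ribosomal RNA separates the groups completely, it and the treatment cannot be told apart for any gene named here. By Xist and Y-linked counts the combination, anti-PD-1 and JQ1 groups each hold 1 library of a female and 1 of a male, and both vehicle libraries are of males. Defining genes of the lung epithelium were present throughout: Sftpc, a surfactant gene, stood at 2003 and 3254 CPM in the combination and at 1854 and 1597 CPM with anti-PD-1. CPM are counts scaled to a common effective library size. That size is the total count multiplied by the TMM scaling factor of the library. The factors were 0.8751 and 0.6725 in the combination libraries and 1.103 and 1.034 in the anti-PD-1 libraries. Compared with scaling by the total count alone, they raise CPM in the combination and lower CPM with anti-PD-1.

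Adding JQ1 to the antibody went with 596 called genes, 303 higher and 293 lower, by edgeR's quasi-likelihood test at a Benjamini-Hochberg adjusted p under 0.05. They are 4.23% of the genes tested, 2.15% in the higher and 2.08% in the lower direction. Counts of calls in the lists below are to be read beside these shares. All 596 had libraries that did not overlap between the groups, which also held for 27.9% of all tested genes on the higher side and 26.8% on the lower side. The median log2 fold change was 1.88 among genes called higher, -1.48 among genes called lower and 0.05 over all genes tested. Under upper quartile scaling the split was 361 higher and 200 lower, the scaling with the largest shift toward rises. The calls sat close to the threshold: the smallest adjusted p of any gene was 0.0167, and 3798 genes had an unadjusted p below 0.05, against 704 expected with no difference.

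Single libraries decide the number of calls. Leaving 1 out keeps the other libraries in the fit, and the lone library left in a group is then assumed to vary like the other groups. Without combination replicate 1, the shallowest, 967 genes were called, and without combination replicate 2 there were 20. Without anti-PD-1 replicate 1 there were 3, and without anti-PD-1 replicate 2 there were 18. Without vehicle replicate 1 or 2, which bear on the spread only, 89 and 70 genes were called. Of 94 called genes named by rule or added to them, the 2 mitochondrial ribosomal RNA genes aside, 77 kept their call without combination replicate 1 and 5 without combination replicate 2, while 1 kept it without anti-PD-1 replicate 1 and 9 without anti-PD-1 replicate 2. None of the 94 kept its call in all 8 fits.

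**Figure D1:**
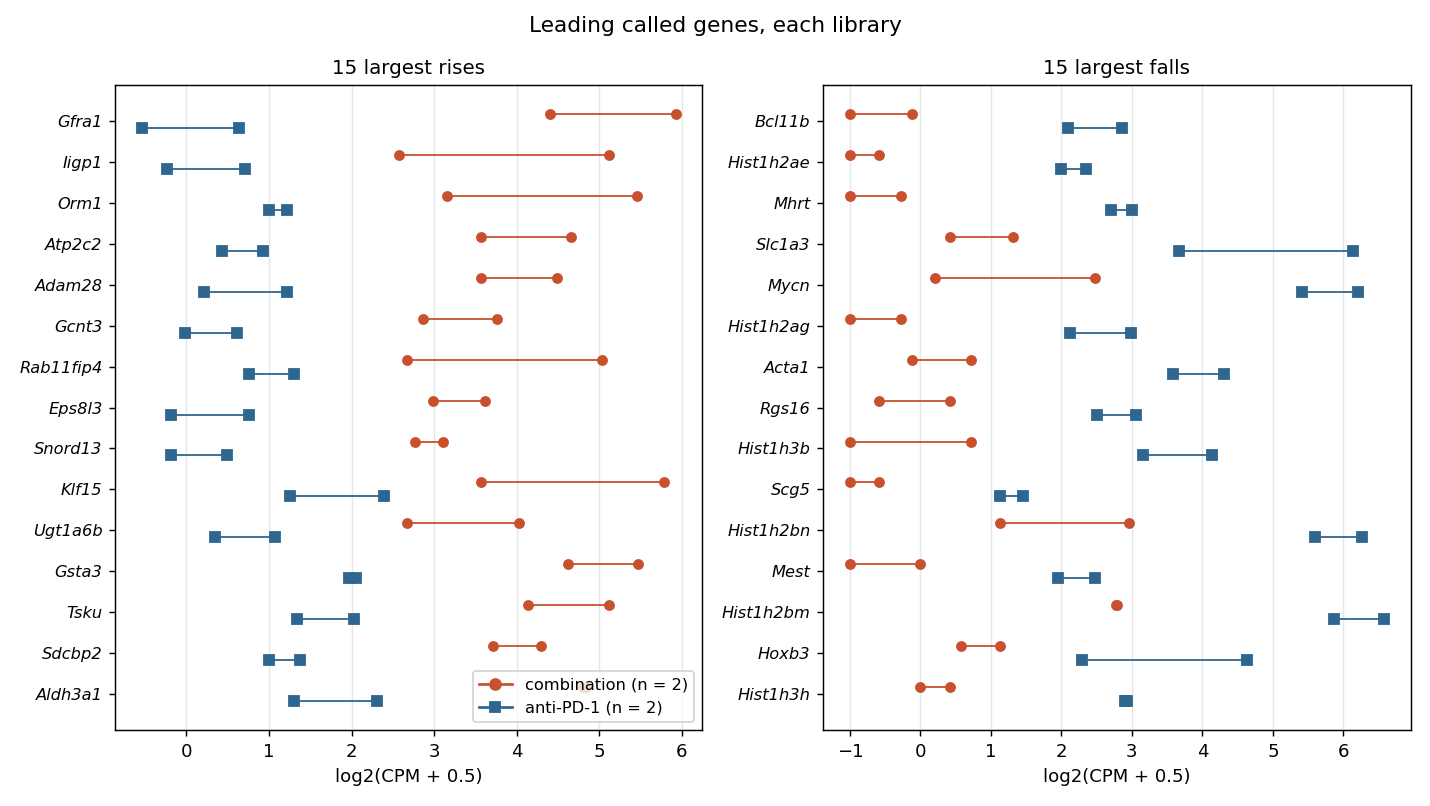
Level of the 15 called genes with the largest rises (left) and falls (right), as log2(CPM + 0.5) on the horizontal axis, with 1 point per library joined within a group (combination circles above, anti-PD-1 squares). The 30 genes were ranked only among those whose 2 groups do not overlap, so that gap follows from the choice. Pairs such as Iigp1, Klf15, Slc1a3 and Hoxb3 lie far apart within a group.

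The largest falls among called genes took in a proto-oncogene, 6 histone genes, muscle genes and genes known from neurons or T cells. Mycn, the MYC family member best known from neuroblastoma, had 5.05 and 0.659 CPM in the combination libraries, against 73.3 and 42.1 CPM in the anti-PD-1 libraries. Both combination libraries lay far under both anti-PD-1 libraries, and under JQ1 and vehicle too, at 19.0 and 40.3 CPM with JQ1 alone and 45.5 and 62.0 CPM with vehicle. Its log2 fold change was -4.67 ± 0.78 (SE), with an adjusted p of 0.0308 by edgeR's quasi-likelihood test. It ranged from -6.43 to -3.54 over the fits that left out 1 library, and the call was kept without combination replicate 1, JQ1 replicate 1 or JQ1 replicate 2 and lost without any of the other 5.

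Bcl11b, a zinc-finger factor of T cells and neurons, had 1 count in the 2 combination libraries together and 137 counts in the 2 anti-PD-1 libraries. Per depth that is 46.3 times as many with anti-PD-1, with a 95% counting interval of 8.18 to 1843, and the edgeR adjusted p was 0.0449. With JQ1 alone it stood at 8.91 and 2.44 CPM, close to the 4.58 and 7.40 CPM of vehicle. Slc1a3, a glutamate and aspartate transporter, had 0.842 and 1.98 CPM in the combination against 12.2 and 70.1 CPM with anti-PD-1, a log2 fold change of -4.69 ± 0.95 (SE; edgeR adjusted p = 0.0407). The 2 anti-PD-1 libraries lay farther apart from each other than 12.2 CPM lies from the combination. Rgs16, which shortens G protein signals, had 3 counts in the combination libraries together, and per depth anti-PD-1 held 18.8 times as many (95% counting interval 6.33 to 92.2; edgeR adjusted p = 0.0326).

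Scg5, a chaperone of neuroendocrine secretory granules, and Mest, an imprinted gene of mesoderm, were also at 1 and 3 counts in the combination. Their ratios of anti-PD-1 to combination were 16.2 (2.78 to 654) and 11.5 (3.83 to 56.7), with edgeR adjusted p of 0.0473 and 0.0453. Hoxb3, a homeobox gene whose reads cannot be told from those of its antisense partner Hoxb3os without strand, had 1.68 and 0.989 CPM in the combination against 4.40 and 24.2 CPM with anti-PD-1. Hoxb3 had a log2 fold change of -3.51 ± 0.84 (edgeR adjusted p = 0.0486), which lost its call in all 8 fits that left out a library.

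The neural-type list held 13 tested genes. Its members were picked for being lower in treated nodules of these data, so its direction follows from the choice and is no result. By name, 4 of them fell, Bcl11b, Rgs16, Scg5 and Ctnnd2. Ctnnd2, a catenin of neuronal junctions, had 5.47 and 4.61 CPM in the combination against 27.1 and 18.3 CPM with anti-PD-1 (log2 fold change -2.19 ± 0.35; edgeR adjusted p = 0.0241). Markers of T cells, another source of Bcl11b, were scarce on both sides. Of 28 such genes 5 could be tested and none was called, and their summed level was 10.5 and 14.5 CPM in the combination and 22.6 and 14.9 CPM with anti-PD-1. Cd3e had 0 and 0.659 CPM in the combination against 1.19 and 0.939 CPM with anti-PD-1, and Cd8a had no count in the combination against 1 and 2 counts with anti-PD-1. The part of T cells in the fall of Bcl11b was not tested. In bulk nodules fewer cells of a type and less RNA per cell cannot be told apart, here and in each result on a cell type or a cell cycle stage.

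Replication-dependent histone genes made up the largest group of falls. These genes supply new nucleosomes in S phase, sit in clusters, and have messages that end in a stem-loop in place of a poly(A) tail. To show where they start, the 300-base windows around the start sites of 3 H2B genes are given from RefSeq (GRCm38.p6), 250 bases before the start and 50 after it, written 5′ to 3′ on the gene's strand. Capitals mark the octamer ATTTGCAT and the CCAAT box, on either strand. Hist1h2bm (chr13:21721794-21722093, plus strand) holds both, and the windows of Hist1h2bl and Hist1h2bn hold the CCAAT letters only.
Hist1h2bm: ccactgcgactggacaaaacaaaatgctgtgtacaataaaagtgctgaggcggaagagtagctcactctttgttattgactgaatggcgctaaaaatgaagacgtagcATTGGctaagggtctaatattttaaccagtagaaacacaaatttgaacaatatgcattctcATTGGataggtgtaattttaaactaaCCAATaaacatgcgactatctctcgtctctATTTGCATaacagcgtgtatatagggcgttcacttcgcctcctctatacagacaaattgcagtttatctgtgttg
Hist1h2bl: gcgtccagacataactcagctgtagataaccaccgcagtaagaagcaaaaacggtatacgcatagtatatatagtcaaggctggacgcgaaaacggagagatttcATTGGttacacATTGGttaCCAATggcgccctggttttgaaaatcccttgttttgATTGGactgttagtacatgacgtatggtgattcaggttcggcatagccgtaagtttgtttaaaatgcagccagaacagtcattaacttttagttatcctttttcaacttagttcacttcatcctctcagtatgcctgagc
Hist1h2bn: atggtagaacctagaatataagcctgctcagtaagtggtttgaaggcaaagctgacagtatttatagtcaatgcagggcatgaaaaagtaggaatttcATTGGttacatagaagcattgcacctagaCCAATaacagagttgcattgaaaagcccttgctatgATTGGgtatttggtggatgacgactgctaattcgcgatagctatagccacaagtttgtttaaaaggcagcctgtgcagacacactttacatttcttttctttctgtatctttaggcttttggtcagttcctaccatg
Hist1h2bl lies at chr13:21716134-21716433 on the minus strand, and Hist1h2bn lies at chr13:21753826-21754125 on the plus strand. Each of these 2 windows shares most of its bases with the start of an H2A gene that runs the other way: 272 bases are shared with Hist1h2ai and 263 with Hist1h2ak. The octamer was found in 6 of 15 H2B promoters and 6 of 16 H2A promoters in the table, against 1.97% of the genes of the whole table. The letters CCAAT or their reverse complement were found in 49 of 58 promoters of this histone list, against 41.1% of all genes with a promoter. These matches describe the windows and say nothing on which factors were bound.

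Hist1h2bm had 6.31 and 6.43 CPM in the combination libraries, against 94.7 and 57.8 CPM in the anti-PD-1 libraries. The combination libraries agreed closely and lay far under both others. The log2 fold change was -3.58 ± 0.42 (SE), with the smallest adjusted p of the whole comparison, 0.0167 by edgeR's quasi-likelihood test. Hist1h2bl had 4.21 and 5.27 CPM in the combination against 66.2 and 40.0 CPM with anti-PD-1. Its neighbour across the shared promoter, Hist1h2ai, had 2.95 and 2.97 CPM in the combination against 37.4 and 22.8 CPM with anti-PD-1. The genes of this pair had like log2 fold changes, -3.45 ± 0.42 and -3.34 ± 0.41, each at an edgeR adjusted p of 0.0167. In the second pair, Hist1h2bn had 1.68 and 7.25 CPM in the combination against 76.5 and 47.8 CPM with anti-PD-1, and Hist1h2ak had 7.58 and 7.58 CPM in the combination against 96.5 and 56.0 CPM with anti-PD-1. Hist1h2bm, Hist1h2bl, Hist1h2ai and Hist1h2ak kept their calls in 6 of the 8 fits that left out a library, all but those without anti-PD-1 replicate 1 and without combination replicate 2. Hist1h2bn kept its own in 3.

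Of 56 histone genes tested in this list 33 fell and none rose, where 2.08% of all genes fell. In 50 of the 56 both combination libraries were under both anti-PD-1 libraries, which held for 26.8% of all tested genes. The median log2 fold change was -2.29, against 0.05 over all genes tested. By class, 9 of 13 H2A genes fell, 10 of 15 H2B genes, 5 of 11 H3 genes and 9 of 12 H4 genes, while none of 5 linker histone H1 genes was called. Their summed levels were 196 and 303 CPM in the combination against 1062 and 827 CPM with anti-PD-1 for H2B, and 176 and 211 CPM in the combination against 539 and 598 CPM with anti-PD-1 for H4. For H1 they overlapped, at 25.3 and 106 CPM in the combination and 63.1 and 56.5 CPM with anti-PD-1. The H3 genes with the largest falls were Hist1h3b and Hist1h3h, at -4.02 ± 0.76 and -3.51 ± 0.65 on the log2 scale. Hist1h2ae and Hist1h2ag, both H2A genes, were down to 1 and 2 counts in the combination, against 103 and 147 counts with anti-PD-1 (edgeR adjusted p = 0.0238 and 0.0259). Histone genes of a class are near copies of each other, and the counting of reads that match several of them was not given in the sources used here, so single members are less certain than the class. The labels give the molecule as polyA RNA and the protocol as probe capture. Since most histone messages carry no poly(A) tail, their measured level can depend on how the RNA was selected, and the part of that in these falls was not tested.

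**Figure D2:**
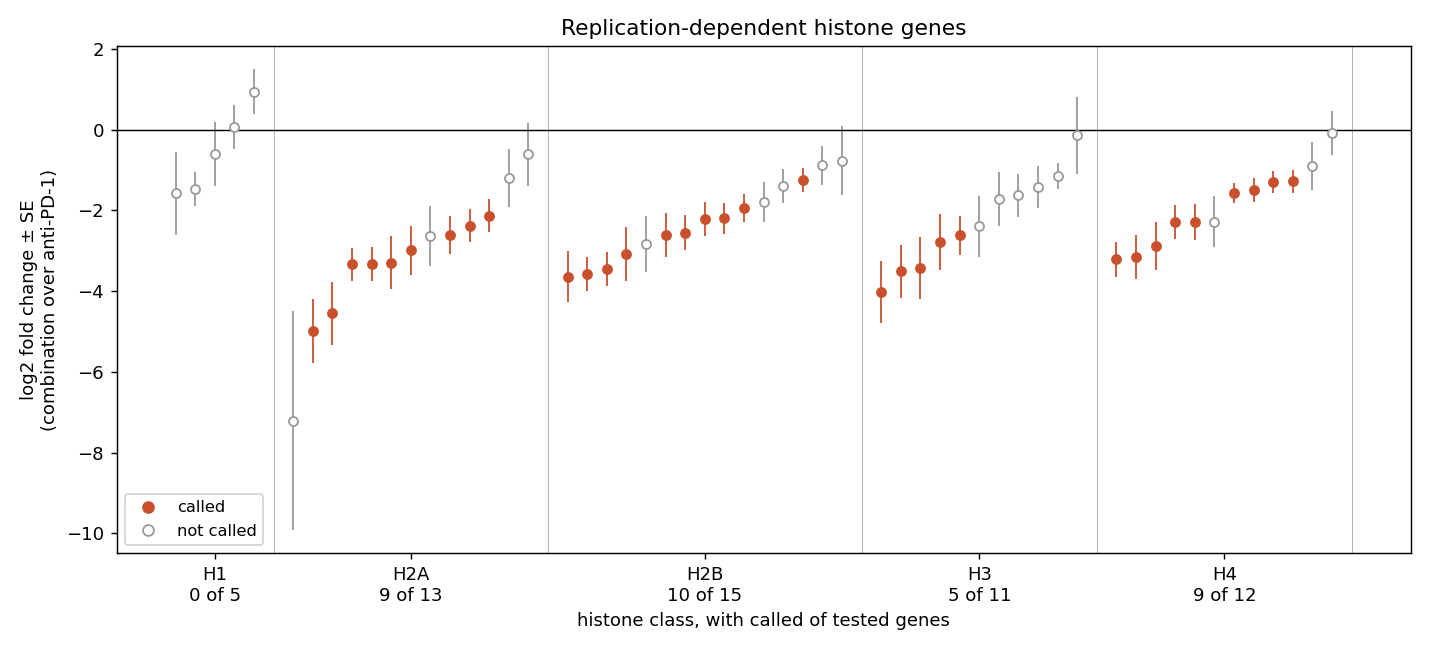
Log2 fold change (combination over anti-PD-1) ± SE on the vertical axis for each of 56 tested replication-dependent histone genes, by class along the horizontal axis. Filled points were called. All called members lie under 0, and the 5 H1 genes are the class without a call.

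The number of histone calls also rests on single libraries. With combination replicate 1 left out 27 fell and 1 gene rose, and with combination replicate 2 left out 5 fell. Without anti-PD-1 replicate 1 none was called and without anti-PD-1 replicate 2 there were 5, although the median stayed between -2.65 and -2.09 in these 4 fits. Without vehicle replicate 1 or 2, 14 and 8 fell. DESeq2 called 42 lower. The list of replication-independent histone genes held 1 fall in 9, where 2.08% of all genes fell. That gene, H2afx, whose product marks DNA breaks, had 6.73 and 9.06 CPM in the combination against 38.1 and 34.7 CPM with anti-PD-1 (log2 fold change -2.17 ± 0.40; edgeR adjusted p = 0.031). H3f3a and H3f3b, which encode the replacement histone H3.3, were not called, at log2 fold changes of -0.84 ± 0.26 and -0.62 ± 0.32.

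Genes of DNA replication and mitosis had negative medians but few calls. Of 34 replication genes 1 fell and 1 rose, where 2.08% of all genes fell and 2.15% rose. The median log2 fold change was -1.02, with 26 negative values. Mcm2, a subunit of the replicative helicase, had 3.79 and 4.61 CPM in the combination against 23.6 and 20.2 CPM with anti-PD-1 (log2 fold change -2.35 ± 0.45; edgeR adjusted p = 0.0335). Orc6, of the origin recognition complex, rose, with 9.26 and 12.9 CPM in the combination against 1.89 and 2.44 CPM with anti-PD-1 (log2 fold change 2.37 ± 0.42; edgeR adjusted p = 0.0274). So the 2 calls went in opposite directions, at numbers near the shares over all genes.

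Of 28 mitosis and G2/M genes 3 fell and none rose, with a median of -1.53. Ect2, which sets up the cleavage furrow, had 1.26 and 2.97 CPM in the combination against 31.4 and 12.1 CPM with anti-PD-1, a log2 fold change of -3.23 ± 0.58 (edgeR adjusted p = 0.0291). Kif23, a motor of the central spindle, and Plk1, the mitotic kinase, fell too, with edgeR adjusted p of 0.0468 and 0.0474. Mki67, which encodes the proliferation antigen Ki-67, had 4.63 and 9.06 CPM in the combination and 22.1 and 9.39 CPM with anti-PD-1. Its groups almost met, and its log2 fold change of -1.15 ± 0.51 was not called (edgeR adjusted p = 0.18). In the mitosis list the median was -0.42 without anti-PD-1 replicate 1 and -2.11 without anti-PD-1 replicate 2, so the distance depends on which antibody library it is taken from. No fit without a library held more than 3 falls in it.

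Abundant cytoskeletal genes were among the falls. Of 15 cytoplasmic actin and tubulin genes 6 fell and none rose, where 2.08% of all genes fell, with a median log2 fold change of -1.21. Without anti-PD-1 replicate 1 none was called, without anti-PD-1 replicate 2 there were 2 falls, and without combination replicate 2 there was 1, at a median of -1.85. Tubb5, a beta-tubulin, had 174 and 288 CPM in the combination against 1339 and 912 CPM with anti-PD-1. The groups lay far apart, with a log2 fold change of -2.28 ± 0.33 and an edgeR adjusted p of 0.0181, and 7 of the 8 fits that left out a library kept the call. Actg1, cytoplasmic gamma-actin, had 498 and 700 CPM in the combination against 2336 and 2733 CPM with anti-PD-1, a log2 fold change of -2.08 ± 0.30 (edgeR adjusted p = 0.0184). Tuba1a and Tuba1b, alpha-tubulins, fell by 2.08 ± 0.31 and 2.27 ± 0.35, and Tubb2a fell by 1.42 ± 0.28 on the log2 scale. Actb, the most abundant of them, had 7128 and 10889 CPM in the combination against 18269 and 23305 CPM with anti-PD-1, and its edgeR adjusted p of 0.047 was lost in each of the 8 fits.

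Striated muscle genes were among the falls, although the samples are labelled as lung tumour nodules. Myh7, the slow and cardiac myosin heavy chain, had 1053 and 595 CPM in the combination against 3958 and 2924 CPM with anti-PD-1 (log2 fold change -2.06 ± 0.37; edgeR adjusted p = 0.0291). Myh6, its cardiac neighbour on chromosome 14, had 136 and 64.8 CPM in the combination against 508 and 307 CPM with anti-PD-1 (log2 fold change -2.03 ± 0.40). Acta1, skeletal alpha-actin, had 0.421 and 1.15 CPM in the combination against 19.3 and 11.5 CPM with anti-PD-1 (log2 fold change -4.08 ± 0.69; edgeR adjusted p = 0.0259). All 3 had groups that did not overlap. Mhrt, a long noncoding RNA inside the Myh7 locus on the other strand, had 2 counts in the combination against 172 with anti-PD-1, and cannot be told from Myh7 reads without strand.

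Other genes of heart muscle varied. Tnnt2, Tnni3, Tnnc1, Ryr2 and Ttn, of the sarcomere and its calcium release, passed the filter and were not called, at log2 fold changes of -2.1 ± 1.04, -2.47 ± 1.09, -1.05 ± 1.0, -2.46 ± 1.2 and -1.57 ± 0.63. Nppa, an atrial hormone, had no count in any of the 4 libraries, and Actc1, cardiac actin, had 0 and 0 CPM in the combination against 21.4 and 0.0939 CPM with anti-PD-1. Of 20 striated muscle genes 8 could be tested, 3 fell and none rose. Their summed level, mostly Myh7, was 1227 and 672 CPM in the combination against 4610 and 3293 CPM with anti-PD-1. The part of muscle tissue in these falls was not tested.

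The largest rises took in secretory and glycosylation genes, detoxification enzymes and an interferon-inducible GTPase. Gfra1, a co-receptor for the growth factor GDNF, had 20.6 and 60.3 CPM in the combination against 1.05 and 0.188 CPM with anti-PD-1. It was also scarce with JQ1 alone, at 1.57 and 0.349 CPM, and with vehicle, at 0.382 and 0 CPM. The log2 fold change was 5.95 ± 1.07 (edgeR adjusted p = 0.0365), and it ranged from 4.95 without combination replicate 2 to 7.66 without anti-PD-1 replicate 1. Atp2c2, a calcium and manganese pump of the Golgi, had 24.8 and 11.4 CPM in the combination against 1.40 and 0.845 CPM with anti-PD-1, a log2 fold change of 3.95 ± 0.53 (edgeR adjusted p = 0.0181) that kept its call in 6 of 8 fits.

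Iigp1, an immunity-related GTPase on chromosome 18, had 5.47 and 34.1 CPM in the combination against 0.349 and 1.13 CPM with anti-PD-1 (log2 fold change 4.82 ± 0.98; edgeR adjusted p = 0.0393). Orm1, an acute phase glycoprotein, had 8.42 and 43.3 CPM in the combination against 1.82 and 1.5 CPM with anti-PD-1 (log2 fold change 3.99 ± 0.83). In both, combination replicate 2 was several times as high as replicate 1, and without it the log2 fold changes were 2.88 and 2.30 and the calls were lost. Klf15, a zinc-finger factor induced by glucocorticoids, showed the same spread, with 11.4 and 54.4 CPM in the combination against 4.75 and 1.88 CPM with anti-PD-1 (log2 fold change 3.32 ± 0.73; edgeR adjusted p = 0.0436; 1.73 without combination replicate 2).

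Gcnt3, which builds branched mucin glycans, had 13.0 and 6.76 CPM in the combination against 0.489 and 1.03 CPM with anti-PD-1. Eps8l3, of the EPS8 actin-regulator family and known from the gut, had 11.8 and 7.42 CPM in the combination against 1.19 and 0.376 CPM with anti-PD-1. Their log2 fold changes were 3.68 ± 0.67 and 3.53 ± 0.57, with edgeR adjusted p of 0.0317 and 0.0246. Both combination libraries stood well over both anti-PD-1 libraries, and both genes were also higher in the JQ1 libraries, at 20.3 and 18.2 CPM for Gcnt3 and 10.1 and 7.85 CPM for Eps8l3, than in the vehicle libraries, at 3.51 and 1.03 CPM and at 0.84 and 0.746 CPM. The other ranked rises were Adam28, a membrane metalloprotease, Rab11fip4, an effector of recycling endosomes, Tsku, a secreted leucine-rich protein, Sdcbp2, a PDZ adaptor, Snord13, a small nucleolar RNA, and Ugt1a6b, Gsta3 and Aldh3a1. Ugt1a6b shares exons with the other Ugt1a genes, so its reads may belong to them.

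NRF2 target genes were the list with the most rises. NRF2 is the transcription factor of the oxidative stress response, which binds antioxidant response elements once freed from KEAP1, and its targets make and recycle glutathione, conjugate electrophiles and supply NADPH. Windows of 3 members that rose are given from RefSeq (GRCm38.p6, 300 bases, as for the histone genes), with the core letters TGACNNNGC in capitals on either strand. Gsta3 is at chr1:21240335-21240634, Srxn1 at chr2:152105274-152105573 and Txnrd1 at chr10:82858956-82859255, all on the plus strand, and the Txnrd1 window is 1 of 3 listed for that gene and the one with a match.
Gsta3: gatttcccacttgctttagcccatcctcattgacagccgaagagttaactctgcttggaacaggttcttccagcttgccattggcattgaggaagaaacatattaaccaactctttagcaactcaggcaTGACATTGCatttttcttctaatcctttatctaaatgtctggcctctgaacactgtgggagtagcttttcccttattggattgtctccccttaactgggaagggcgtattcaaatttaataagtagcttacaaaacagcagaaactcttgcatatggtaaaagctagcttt
Srxn1: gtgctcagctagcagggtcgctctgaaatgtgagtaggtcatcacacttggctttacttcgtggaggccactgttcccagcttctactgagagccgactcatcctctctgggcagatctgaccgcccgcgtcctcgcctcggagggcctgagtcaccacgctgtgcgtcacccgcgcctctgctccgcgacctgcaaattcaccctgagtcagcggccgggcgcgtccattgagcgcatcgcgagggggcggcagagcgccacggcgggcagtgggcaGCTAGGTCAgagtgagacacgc
Txnrd1: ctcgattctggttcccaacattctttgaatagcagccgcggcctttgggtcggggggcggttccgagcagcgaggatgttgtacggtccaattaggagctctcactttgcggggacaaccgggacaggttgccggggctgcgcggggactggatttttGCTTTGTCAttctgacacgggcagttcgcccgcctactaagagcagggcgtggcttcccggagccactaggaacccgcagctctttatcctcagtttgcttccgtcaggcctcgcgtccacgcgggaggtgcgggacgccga
The letters were in 8 of the 18 members that have a promoter there, against 14.0% of all genes.

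Gsta3, a glutathione transferase, had 43.8 and 24.2 CPM in the combination against 3.42 and 3.66 CPM with anti-PD-1. The groups lay far apart, with a log2 fold change of 3.25 ± 0.45 (edgeR adjusted p = 0.0181) that kept its call in 6 of 8 fits. Srxn1, sulfiredoxin, which repairs oxidised peroxiredoxins, had 18.9 and 12.9 CPM in the combination against 1.89 and 3.38 CPM with anti-PD-1 (log2 fold change 2.58 ± 0.48; edgeR adjusted p = 0.0317). Txnrd1, thioredoxin reductase, had 72.4 and 108 CPM in the combination against 24.2 and 31.9 CPM with anti-PD-1 (log2 fold change 1.69 ± 0.32; edgeR adjusted p = 0.0317). For each of these the higher antibody library was under the lower combination library. Slc7a11, the cystine importer that feeds glutathione synthesis, had 213 and 63.3 CPM in the combination against 19.3 and 28.1 CPM with anti-PD-1, and its log2 fold change of 2.53 ± 0.53 was 1.41 without combination replicate 1, which ended the call.

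The other rises of this list were Gsta4, a further glutathione transferase, Gsr, glutathione reductase, and G6pdx and Pgd, the NADPH-making enzymes of the pentose phosphate pathway. Their log2 fold changes were 2.49 ± 0.42, 1.94 ± 0.34, 1.77 ± 0.31 and 1.26 ± 0.27, at edgeR adjusted p of 0.0259, 0.0271, 0.0271 and 0.0386. Thus 8 of 21 tested members rose and none fell, where 2.15% of all genes rose, and the median log2 fold change was 1.64. Both combination libraries were over both anti-PD-1 libraries in 17 of 21, which held for 27.9% of all tested genes. Nqo1, a classical target, had 2.53 and 7.91 CPM in the combination against 0.559 and 1.13 CPM with anti-PD-1 and was not called (log2 fold change 2.7 ± 0.78; edgeR adjusted p = 0.0716). The genes of the factor and its inhibitor were not called: Nfe2l2 had a log2 fold change of -0.21 ± 0.30 and Keap1 one of 0.05 ± 0.39. None of the 8 calls was made without anti-PD-1 replicate 1 or without anti-PD-1 replicate 2, where the medians were 1.12 and 1.76. Without combination replicate 2 there were 2 rises, and without vehicle replicate 1 or 2 there were 2 and 1.

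The lung xenobiotic enzymes, which overlap the NRF2 list in Gsta3 and Ephx1, held 4 rises and no fall among 19. Fmo2, the flavin monooxygenase of lung, had 215 and 159 CPM in the combination against 26.5 and 32.2 CPM with anti-PD-1. Both combination libraries lay far over both anti-PD-1 libraries, with a log2 fold change of 2.67 ± 0.32 (edgeR adjusted p = 0.0167), a range from 2.43 to 2.84 and a call in 6 of 8 fits. Aldh3a1, an aldehyde dehydrogenase, had 27.4 and 28.2 CPM in the combination against 4.47 and 1.97 CPM with anti-PD-1 (log2 fold change 3.09 ± 0.61; edgeR adjusted p = 0.0369). Por, the electron donor of all microsomal cytochromes P450, had 86.7 and 182 CPM in the combination against 37.0 and 45.8 CPM with anti-PD-1 (log2 fold change 1.70 ± 0.35).

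Several of these enzymes are typical of airway secretory cells, and the markers of those cells were higher in sum too. The marker list shares Cyp2f2, Cbr2, Aldh1a1 and Aldh3a1 with the xenobiotic list, so the sums are in part of the same genes. Their summed level over 18 genes was 792 and 412 CPM in the combination against 195 and 175 CPM with anti-PD-1. Scgb1a1, the secretoglobin that defines club cells, had 305 and 244 CPM in the combination against 87.3 and 21.2 CPM with anti-PD-1, without being called (log2 fold change 2.34 ± 0.74; edgeR adjusted p = 0.102). Of 12 tested members 1 rose, Aldh3a1, and 10 had positive values, at a median log2 fold change of 1.53. Combination replicate 1 carries that median: without it the value was 0.05, with 7 positive and 6 negative values among 13. Bpifa1, another secretory marker, had 54 counts in combination replicate 1 and none in replicate 2. The part of airway cells in the rise of these enzymes was not tested.

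**Figure D3:**
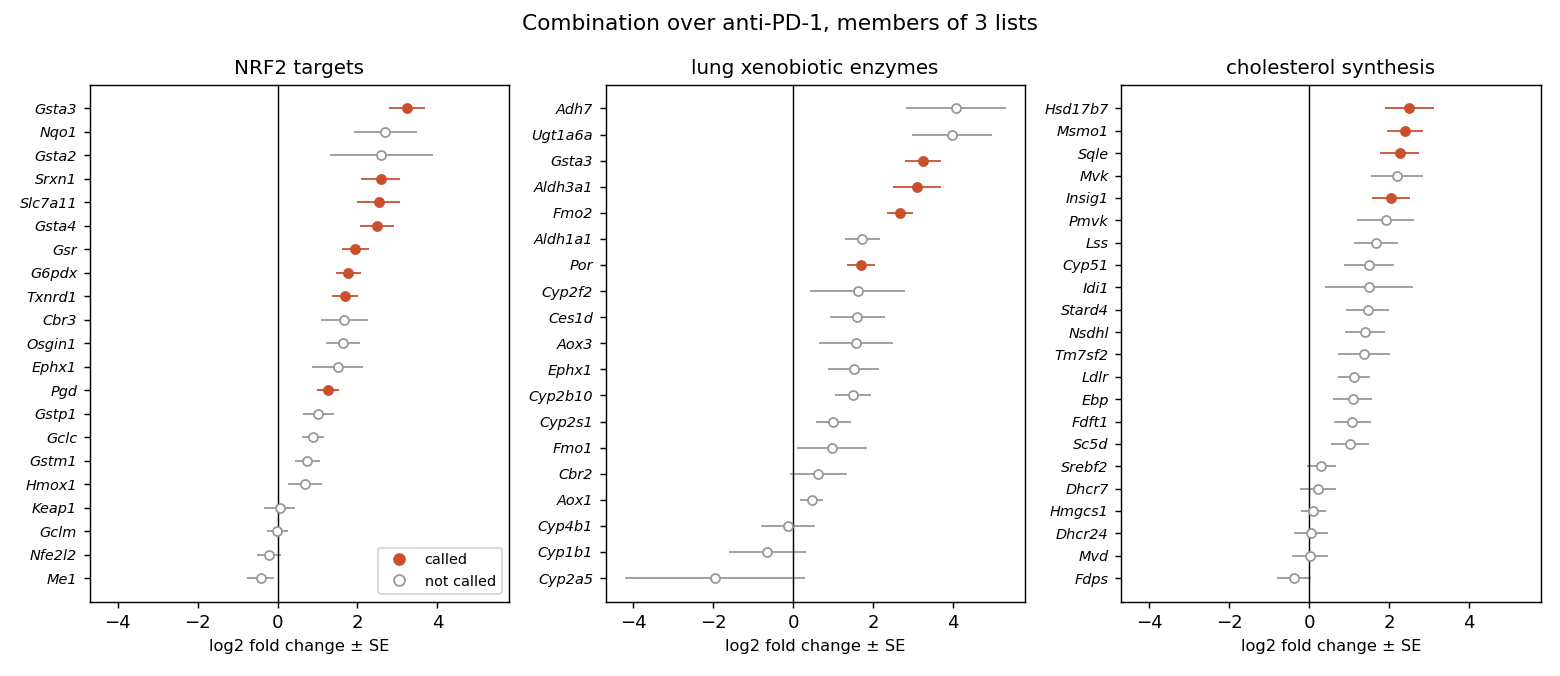
Log2 fold change (combination over anti-PD-1) ± SE on the horizontal axis for tested members of 3 lists, sorted by value; filled points were called. Called members are all to the right of 0, with 8 among NRF2 targets, 4 among xenobiotic enzymes and 4 among cholesterol synthesis genes.

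Cholesterol synthesis genes, under control of SREBP2, held 4 rises and no fall among 23, with a median log2 fold change of 1.38. Sqle, squalene epoxidase, had 8.84 and 24.7 CPM in the combination against 3.14 and 4.04 CPM with anti-PD-1 (log2 fold change 2.26 ± 0.49; edgeR adjusted p = 0.0395). Msmo1, a sterol methyl oxidase, had 10.9 and 12 CPM in the combination against 2.79 and 1.5 CPM with anti-PD-1 (log2 fold change 2.40 ± 0.45; edgeR adjusted p = 0.0317). Insig1, the sterol sensor that holds SREBP in the endoplasmic reticulum, and Hsd17b7, a late enzyme of the pathway, rose as well. The sterol element letters TCACNCCAC were in 1 of 16 promoters of the list and in 1.44% of all genes. Without anti-PD-1 replicate 1, anti-PD-1 replicate 2 or combination replicate 2 no member was called, and the medians were 1.56, 0.82 and 0.87. Without either vehicle library none was called as well. Elovl5, a fatty acid elongase, was the 1 rise among 15 fatty acid synthesis genes (log2 fold change 1.62 ± 0.30; edgeR adjusted p = 0.031).

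Protein-coding genes of the mitochondrial genome held 4 rises among 10, mt-Nd1, mt-Nd6, mt-Co1 and mt-Cytb, with a median log2 fold change of 1.15. The 2 mitochondrial ribosomal RNA genes, mt-Rnr1 and mt-Rnr2, rose as well, at 1.42 ± 0.27 and 1.35 ± 0.27 (edgeR adjusted p = 0.0317 and 0.0365). Both are counted among the ribosomal RNA genes whose share separates the groups, so their rise is not separate from that share. mt-Nd1, of respiratory complex I, had 418 and 657 CPM in the combination against 213 and 223 CPM with anti-PD-1 (log2 fold change 1.30 ± 0.29; edgeR adjusted p = 0.0413). No protein-coding member was called with a sex term, with only the 4 libraries in the fit, or without either anti-PD-1 library, either vehicle library or combination replicate 2. mt-Nd6 lies next to mt-Nd5 on the other strand, and only reads of the bases they share cannot be told apart without strand. Nuclear genes of oxidative phosphorylation held 1 rise in 39, near the 2.15% of all genes that rose. It was Cox6a1 (log2 fold change 2.04 ± 0.39, edgeR adjusted p = 0.0335). Of the 39 nuclear genes 30 were positive, with a median of 0.84. Their library medians over the antibody mean were 0.22 and 1.17 in the combination, so replicate 2 carries most of it. Cytosolic ribosomal protein genes held 3 falls in 56, where 2.08% of all genes fell, with a median of -0.38. Rps4x and Rpsa of the small subunit were among the falls.

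EdgeR called 0 of 15 genes of the BET and P-TEFb list, of which 9 had an unadjusted p under 0.05. DESeq2 called 2 higher and 3 lower, limma trend 2 lower and limma voom 0. EdgeR called 2 higher and 1 lower without combination replicate 1, and 1 higher and 2 lower without either JQ1 library. Brd2 had 189 and 194 CPM in the combination against 359 and 395 CPM with anti-PD-1, and its log2 fold change of -0.97 ± 0.25 missed the threshold (edgeR adjusted p = 0.056). Brd3 stood at 0.32 ± 0.30. Hexim1, the P-TEFb inhibitor used as a readout of BET inhibition, where it is known to be raised, had 26.1 and 9.23 CPM in the combination and 47.4 and 43.1 CPM with anti-PD-1 (log2 fold change -1.41 ± 0.47; edgeR adjusted p = 0.0994). Serpini1, another gene used as a readout of BET inhibitors, had 3 and 3 counts in the combination against 1 and 0 with anti-PD-1, too few to test, and per depth 17.7 times as many in the combination (95% counting interval 2.15 to 816).

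MYC family genes moved in both directions. Beside the fall of Mycn, Mycl, the family member first found in small cell lung cancer, had 5.89 and 11.5 CPM in the combination against 1.12 and 1.69 CPM with anti-PD-1 (log2 fold change 2.67 ± 0.56; edgeR adjusted p = 0.0371). Mxd1, a MAX partner that represses MYC targets, had 39.1 and 35.8 CPM in the combination against 14.9 and 9.95 CPM with anti-PD-1 (log2 fold change 1.59 ± 0.32; edgeR adjusted p = 0.0365). Myc itself had 16.0 and 7.75 CPM in the combination and 17 and 19.3 CPM with anti-PD-1, and was not called (log2 fold change -0.66 ± 0.38; edgeR adjusted p = 0.277). Of 29 MYC target genes of ribosome biogenesis 1 fell, Rrp9, where 2.08% of all genes fell, and the median was -0.31.

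Among outputs of RAS and ERK signalling Fosl1, the AP-1 subunit FRA1, rose while Phlda1 and Egr1 fell. Fosl1 had 3.79 and 2.47 CPM in the combination against 0.279 and 0.0939 CPM with anti-PD-1 (log2 fold change 3.88 ± 0.76; edgeR adjusted p = 0.0347). Egr1, an immediate early factor, had 21.0 and 10.7 CPM in the combination against 45.8 and 41.0 CPM with anti-PD-1 (log2 fold change -1.49 ± 0.35; edgeR adjusted p = 0.047). Phlda1 had 20.6 and 9.39 CPM in the combination against 63.2 and 80.7 CPM with anti-PD-1, and fell by 2.31 ± 0.40 on the log2 scale. The other 18 of 21 tested members were not called. With a sex term the list held 2 falls and no rise and with DESeq2 6 falls and no rise, so Fosl1 lost its call in both. Trp53, which encodes p53, stood at 0.58 ± 0.54 and was not called.

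Of 20 p53 target genes 2 rose, where 2.15% of all genes rose. They were Perp, a junction protein, and Trp53inp1, a stress-induced nuclear protein. Their log2 fold changes were 1.97 ± 0.42 and 2.06 ± 0.47 (edgeR adjusted p = 0.0393 and 0.0447). Cdkn1a, the cell cycle inhibitor p21, had 4.63 and 70.0 CPM in the combination and 8.94 and 6.95 CPM with anti-PD-1. Here the 2 combination libraries lay on either side of the anti-PD-1 libraries, and the log2 fold change was 2.27 ± 0.92 with all libraries and -0.81 without combination replicate 2. Bik, a BH3-only cell death gene, was the 1 rise among 15 BCL2 family genes (log2 fold change 3.94 ± 0.97; edgeR adjusted p = 0.0494).

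Clock genes held 1 rise among 15, Per3, and clock output genes held 2 among 9, Tef and Por, with no fall in either list. Por is the same rise as among the xenobiotic enzymes. With a sex term, or with only the 4 libraries in the fit, no clock output gene was called. The median of the clock genes was 0.44, and -0.03 without combination replicate 2. Over all genes 2.15% rose. Per3, a period gene, had 79.5 and 93.9 CPM in the combination against 19.7 and 21.2 CPM with anti-PD-1. Its libraries agreed within each group, and the log2 fold change was 2.09 ± 0.32 (edgeR adjusted p = 0.0214), with a call in 5 of 8 fits. Tef, a PAR bZip factor of clock output, had 148 and 128 CPM in the combination against 55.4 and 63.9 CPM with anti-PD-1 (log2 fold change 1.21 ± 0.28; edgeR adjusted p = 0.0457). Per2 had 65.2 and 62.0 CPM in the combination against 27.9 and 25.3 CPM with anti-PD-1 and just missed the threshold (log2 fold change 1.26 ± 0.31; edgeR adjusted p = 0.0504). The hour of sampling was not given in the sources used here.

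A pair of lung identity factors fell. Nkx2-1, the lineage factor of lung epithelium and of lung adenocarcinoma, had 842 and 402 CPM in the combination against 1659 and 1560 CPM with anti-PD-1 (log2 fold change -1.37 ± 0.34; edgeR adjusted p = 0.0496). The groups did not overlap, and the call held in 1 of 8 fits, the one without combination replicate 1. Id2, an inhibitor of basic helix-loop-helix factors active at the lung bud tip, had 67.3 and 49.4 CPM in the combination against 215 and 234 CPM with anti-PD-1 (log2 fold change -1.95 ± 0.27; edgeR adjusted p = 0.0181). Of 19 lung lineage factors 2 fell and none rose, with a median of -0.79. Of 23 surfactant and other alveolar type 2 genes S100g rose and Nkx2-1 fell, with 13 positive and 10 negative values and a median of 0.28. Of 14 gastrointestinal genes, known to appear in lung tumours that lose NKX2-1, Eps8l3 and Gpa33 rose and none fell. The list had 9 positive and 5 negative values and a median of 1.40. Vil1 and Hnf4a were among the negative ones, at -1.33 ± 0.38 and -0.63 ± 0.39, and were not called. The median was 0.44 without combination replicate 2 and 0.63 without anti-PD-1 replicate 2. A link of this list to the fall of Nkx2-1 was not tested.

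Collagen genes held 3 falls and no rise among 26, where 2.08% of all genes fell, with a median of -0.69. That median was -0.27 without anti-PD-1 replicate 1 and -1.36 without combination replicate 2. Col1a1, the main fibrillar chain, had 250 and 256 CPM in the combination against 1257 and 765 CPM with anti-PD-1 (log2 fold change -2.0 ± 0.31; edgeR adjusted p = 0.0195), with a call in 6 of 8 fits. Col12a1, a fibril-associated chain, and Col4a5, of basement membranes, fell by 1.61 ± 0.30 and 1.43 ± 0.29 on the log2 scale. Acta2, smooth muscle actin, and Vim, vimentin, fell by 1.96 ± 0.43 and 1.39 ± 0.32. Acta2 was the 1 call among 15 smooth muscle and pericyte genes, which had 5 positive and 10 negative values and a median of -0.2. Vim was the 1 call among 18 genes of epithelial-mesenchymal transition, with 7 positive and 11 negative values and a median of -0.09. The fibroblast marker list shares Col1a1, Col1a2 and Col3a1 with the collagen list, so its sum is in part of the same genes. Of 23 tested fibroblast markers 1 fell, Col1a1, and none rose. They had 7 positive and 16 negative values and a median of -0.42. Their summed level was 1630 and 2157 CPM in the combination against 3761 and 2768 CPM with anti-PD-1. Pdgfra, a fibroblast receptor, went the other way without being called, at 48.8 and 35.1 CPM in the combination and 12 and 17.9 CPM with anti-PD-1 (log2 fold change 1.48 ± 0.44; edgeR adjusted p = 0.0775). The part of fibroblast content in the collagen falls was not tested.

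Immune genes gave few calls. All 18 tested genes of the type I interferon response had positive values, with a median log2 fold change of 1.15. EdgeR called 0 of them, with 7 at an unadjusted p under 0.05, and DESeq2, limma voom and limma trend called 0 each. Without combination replicate 2 the median was 0.73, with 14 positive and 7 negative values among 21. Ifit3, an antiviral effector, had 5.05 and 1.98 CPM in the combination against 0.629 and 0.563 CPM with anti-PD-1 (log2 fold change 2.45 ± 0.76; edgeR adjusted p = 0.0828). Of 11 IRG and GBP GTPases, induced by interferon gamma, all were positive and Iigp1 rose, with a median of 1.66. For these GTPases the median without combination replicate 2 was 0.6, with 8 positive and 3 negative values. Limma voom and the fit with a sex term called 0 of them. EdgeR called 0 of 9 MHC class II genes, with 2 at an unadjusted p under 0.05, while DESeq2 called 2 lower, limma voom and limma trend 1 lower each, and edgeR 1 lower without either JQ1 library. Their median was -1.35, and their sum was 139 and 560 CPM in the combination against 1240 and 885 CPM with anti-PD-1. H2-Aa had 17.7 and 77.6 CPM in the combination against 309 and 326 CPM with anti-PD-1 (log2 fold change -2.7 ± 0.67; edgeR adjusted p = 0.0605). The list median without combination replicate 1 was -0.68 and without combination replicate 2 it was -3.02.

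Cd274, which encodes the PD-1 ligand PD-L1, had 2.95 and 0.824 CPM in the combination and 1.89 and 1.13 CPM with anti-PD-1. The groups overlapped and no difference could be seen at this depth (log2 fold change 0.14 ± 0.73; edgeR adjusted p = 0.917), and the sign changed when combination replicate 1 was left out. Pdcd1, the gene of PD-1 itself, had 1 and 2 counts in the combination against 4 and 1 with anti-PD-1, too few to test. EdgeR called 0 of the genes tested from the lists of T cells, NK cells, B and plasma cells, dendritic cells, neutrophils, endothelium and alveolar macrophages, which number 5, 1, 5, 3, 7, 27 and 17. Of these, 1, 0, 1, 0, 1, 9 and 4 had an unadjusted p under 0.05. DESeq2 called 1 B and plasma cell gene lower, 1 endothelial gene lower, and 1 alveolar macrophage gene higher and 1 lower. Limma trend called 1 B and plasma cell gene lower, and limma voom called 0 in these lists. EdgeR called 1 B and plasma cell gene lower without anti-PD-1 replicate 2 and 1 alveolar macrophage gene higher without combination replicate 1.

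**Figure D4:**
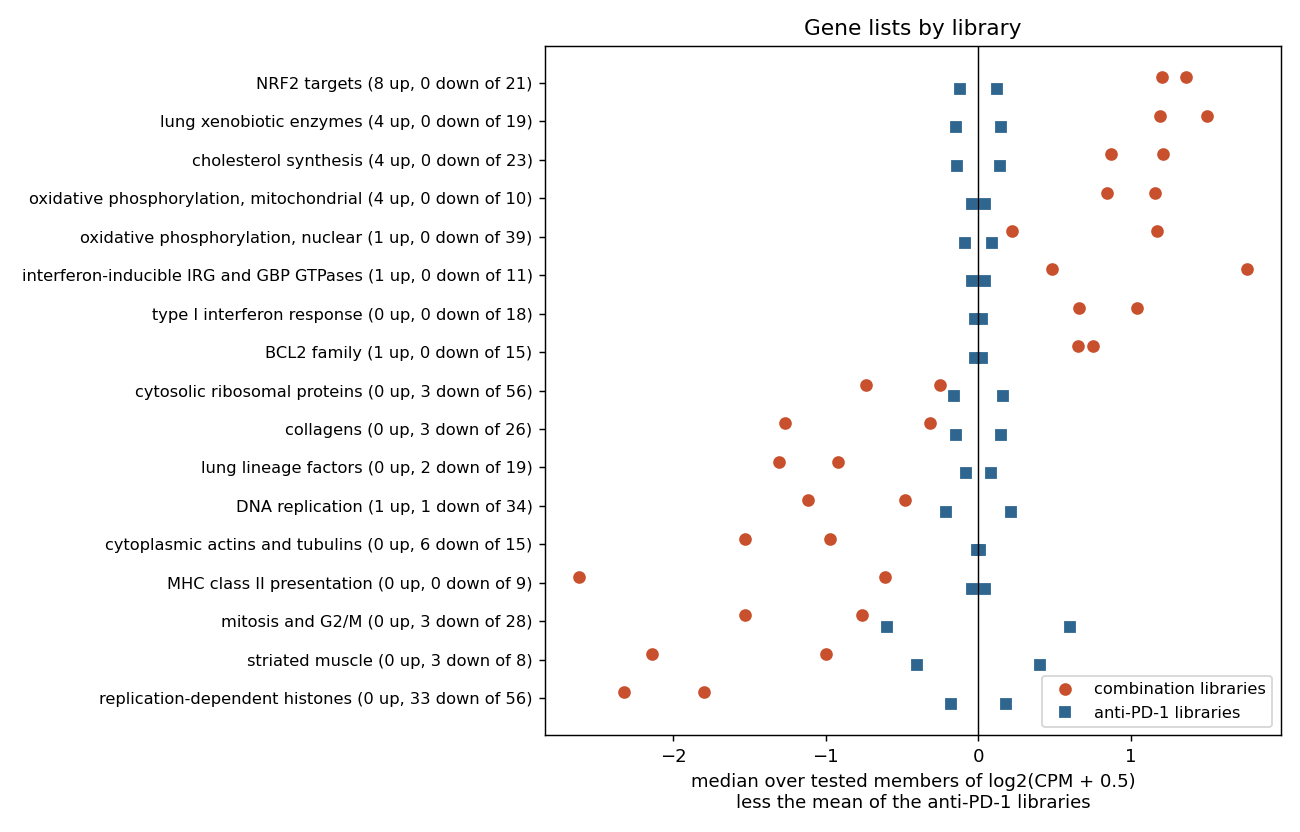
Median over the tested members of 17 lists (rows, with members called up, called down and tested) of log2(CPM + 0.5), minus the average over the anti-PD-1 libraries, with 1 point per library. The 17 were chosen with their values known, and in each both combination circles lie on 1 side of both anti-PD-1 squares, which held for 34 of all 61 lists and not for 27, T cells among them (-1.14 and -0.15 in the combination, 0.49 and -0.49 with anti-PD-1); and for MHC class II and the IRG and GBP genes the combination libraries lie far apart from each other.

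JQ1 was also given without the antibody, and JQ1 against vehicle shares no library with the comparison above, though both come from 1 fit. For JQ1 against vehicle edgeR called 0.0% of the genes, 0 in number, with 1427 at an unadjusted p under 0.05, while DESeq2 called 80 and limma voom and limma trend 0 each. Ribosomal RNA genes took 35% and 27.7% of the counts in the JQ1 libraries, against 23.7% and 21.8% in the vehicle libraries, so the share is higher on the JQ1 side of both comparisons and cannot be told apart from the treatment in either. Of the 303 genes called higher in the combination 278 were also higher with JQ1 than with vehicle, at a median log2 fold change of 0.67 for those 303. Of the 293 called lower 280 were lower with JQ1, at a median of -0.57. Over all 14085 genes the 2 sets of log2 fold changes had a Pearson r of 0.424 and a Spearman rho of 0.528, as a description across genes, which are not independent replicates. The called genes were chosen in the antibody setting, so their larger values there are no measure of a stronger effect.

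Some genes had like values in both settings. Eps8l3 was at 3.53 ± 0.57 with the antibody and at 3.48 ± 0.55 without it, Gsta4 was at 2.49 ± 0.42 and 2.31 ± 0.41, and Col4a5 at -1.43 ± 0.29 and -1.52 ± 0.29. Others had a value near 0 without the antibody, such as Per3, at 2.09 ± 0.32 with it and -0.27 ± 0.32 without, Bcl11b, at -0.09 ± 0.65 without, and Aldh3a1, at 3.09 ± 0.61 with and 0.06 ± 0.59 without. The histone list had a median of -2.29 with the antibody and -1.06 without, and the NRF2 list 1.64 with and 0.30 without. None of these differences was shown by a test. For the interaction, edgeR's quasi-likelihood test called 0.0% of the 14085 genes, 0 in number, with 881 at an unadjusted p under 0.05 and a smallest adjusted p of 0.745. DESeq2 called 22, and limma voom and limma trend called 0 each. For Per3 the interaction was 2.35 on the log2 scale (edgeR adjusted p = 0.745).

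**Figure D5:**
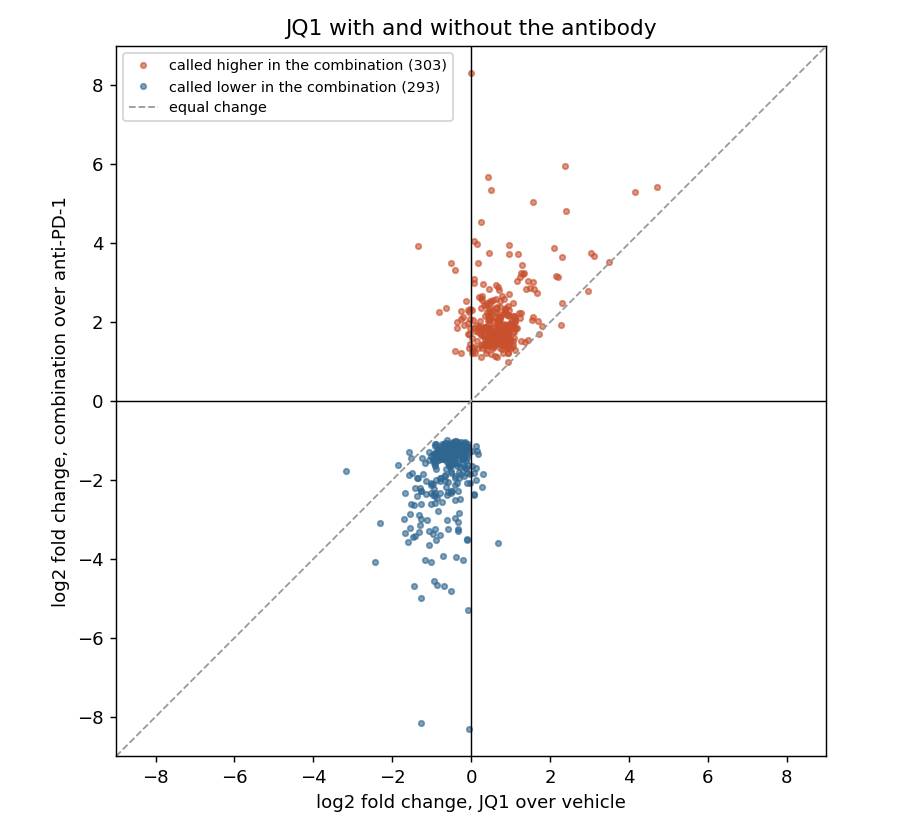
Log2 fold change of the 596 called genes in the combination over anti-PD-1 (vertical) against that of JQ1 over vehicle (horizontal), 1 point per gene, with a dashed line where both would be equal. Most points lie at the upper right and lower left (278 of 303 and 280 of 293) and 589 of the 596 have the larger value with the antibody, the setting in which they were called.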

How the data were processed

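RNA of frozen tumour nodules was measured in 8 libraries, 2 per group, made from 50 ng of RNA by probe capture of coding regions, per the labels' protocols. The submitters' processing notes name bcl2fastq, STAR, featureCounts and DESeq2 and the mouse build mm10/GRCm38. The annotation, the use of strand and the treatment of multiply mapped reads were not given in the sources used here. As deposited, the authors' main table holds raw read counts per gene symbol, used unchanged, and a second table holds size-factor normalized counts. In that deposited signal table, undoing the size factors gave whole reads for 99.989% to 100% of values within 0.05 reads. Rounded, those reads equalled the raw counts in every library. The same 596 calls, an alternative added after seeing the data, thus follow from the input and are no further check.

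Genes were filtered with filterByExpr, scaled by TMM and fitted with edgeR 4.0.16 (R 4.3.3; robust quasi-likelihood) in 1 model of all 8 libraries with 4 residual degrees of freedom. A gene was called at a Benjamini-Hochberg adjusted p under 0.05 over all 14085 genes tested. Of 52459 symbols 26033 had no count. Fitted log2 fold changes carry a prior count of 0.125. Alternatives were other scalings, other filters, DESeq2 1.42.0, limma 3.58.1 (voom and trend), a sex term, the 4 libraries alone and each library left out. The edgeR step was tested on simulated data. Counts of 3 correspond to 1.26 and 0.494 CPM in the combination libraries and to 0.21 and 0.282 CPM in the anti-PD-1 libraries. Counting intervals cover counting error only.

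No library pair agreed within sampling noise (chi-square per degree of freedom of at least 17.34). The 2 libraries of each compared group are of a female and a male, thus of different mice. The spread behind each p-value was estimated over all 8 libraries. On log2 CPM the 2 combination libraries had a Pearson r of 0.8915 with each other. That lies within the 0.8805 to 0.8938 found between combination and anti-PD-1 libraries. The 2 anti-PD-1 libraries had an r of 0.954, so a spread shared by all groups may be too small for the combination. Both vehicle libraries are of males, and whether they are of different mice was not given in the sources used here. Genes were named as the 15 largest rises and falls by log2 fold change among called genes of mean log2 CPM of at least 1 whose libraries do not overlap, as 24 fixed genes, and as up to 4 genes of smallest p in each of 61 lists. Predicted genes, receptor segments and sex-linked controls were left out of the ranks. The comparison, its genes and the lists were chosen with earlier results of these data known. Srxn1, Txnrd1, Slc7a11, Pgd, Nqo1, Nfe2l2, Keap1, Ephx1, Actb, Tubb2a, Mki67, Cd3e, Cd8a, Pdcd1, Actc1, Nppa, mt-Rnr1, mt-Rnr2 and the other heart muscle genes were named after their values were seen. Results for some genes, and 1 row of a plot, are not reported here.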

Additional observations from a re-analysis of the deposited data

How the results depend on the processing

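The count of 596 called genes (303 higher, 293 lower) depended on the settings. It was 1920 (735 higher, 1185 lower) with no filter on low counts and 1556 (657 and 899) with DESeq2. It was 57 (25 and 32) when only the 4 libraries entered the fit and 212 (103 and 109) with a sex term. Limma trend called 741, of which 486 were lower. Leaving out 1 library gave 3 to 967 calls, 0 to 581 of them higher and 3 to 386 lower, with the lone library of a group assumed to vary like the other groups. RLE factors, upper quartile factors, removal of ribosomal RNA, mitochondrial and haemoglobin genes, limma voom and a mean count of at least 50 gave 471 to 655. A larger prior count gave 596, which was fixed beforehand, since it enters the fitted fold changes only. For the interaction, the count was 138 with no filter, 22 with DESeq2 and 0 to 1 with 1 library left out, against 0. Of 91 called genes named in the text, 67 lost the call with only the 4 libraries and 40 with a sex term. Values that changed sign belong to genes that were not called. Over the fits that left out 1 library, Bpifa1 ranged from -3.07 to 9.72, Cd274 from -0.88 to 0.92, Cdkn1a from -0.81 to 3.13, Keap1 from -0.43 to 0.33 and Nfe2l2 from -0.51 to 0.13 (log2). Cd274 was at -0.22 with limma voom, and Keap1 at -0.04 with no filter and -0.10 with limma trend. The cause of these shifts was not tested. No paired analysis was possible because the replicate numbers are only accession order. Depth limits the genes with few counts, most of all in combination replicate 1.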
